A study of Mus musculus with 6 samples.

Results

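The S100 proteins are a family of small calcium-binding proteins of the EF-hand type. They had been picked out here because S100a4 stood among the genes that were most increased in dedifferentiated fat cells over mature adipocytes. Of 10 named members, 9 (S100a1, S100a4, S100a6, S100a8, S100a9, S100a10, S100a13, S100a16 and S100b) had at least 1 probe set annotated with that gene alone, and together they had 14 of the 45037 probe sets tested and stood for 9 of 18193 genes. The probe set for the remaining member, S100a11, is annotated with 3 genes and was left out. The values came from 6 Affymetrix GeneChip arrays of the mouse genome, 3 of dedifferentiated fat (DFAT) cells and 3 of mature adipocytes (AC). DFAT cells were a line that ceiling culture had given from adipocytes of GFP transgenic mice and that was grown to semiconfluence, and AC were isolated from mouse fat tissue. Strain, sex and age were not found in the labels or the study's methods, the origin from GFP mice is not stated for AC, and whether animals or cultures differed between the 3 arrays of a group is not stated, so a p-value here covers array-to-array spread, which may be technical.

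As background, most S100 proteins form dimers that open a binding groove when calcium is bound, and through it they attach to partners such as myosin, annexins and p53. Inside cells they act on the cytoskeleton, membranes and growth control, and several are also released and signal through the receptors RAGE (Ager) and Tlr4. In fat tissue, S100b is known from rodent adipocytes, S100a4 from fibroblasts and some macrophages, and S100a8 with S100a9 from neutrophils and monocytes.

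Most S100 genes share a chromosome. By the RefSeq annotation of GRCm38.p6, 15 of 18 protein-coding S100 genes lie on chromosome 3, among them all named members but S100b, which is on chromosome 10. The stretches of 250 bases before the RefSeq start (GRCm38.p6, plus strand, 5′ to 3′) are shown for S100a4 and S100a6, the members with the largest increases, between which S100a5 lies, and for S100a8 and S100b, the members with the largest decreases. Capitals mark matches to any of 5 motifs searched on both strands: the TATA box (TATAAA), the GC box (GGGCGG), the AP-1 motif (TGANTCA), the TEAD motif (GGAATG) and the CArG box.
S100a4, chr3:90603520-90603769: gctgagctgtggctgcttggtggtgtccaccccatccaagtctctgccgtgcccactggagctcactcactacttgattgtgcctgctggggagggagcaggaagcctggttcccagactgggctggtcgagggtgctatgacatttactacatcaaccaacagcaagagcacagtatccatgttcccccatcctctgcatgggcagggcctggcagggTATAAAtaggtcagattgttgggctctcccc
S100a6, chr3:90612644-90612893: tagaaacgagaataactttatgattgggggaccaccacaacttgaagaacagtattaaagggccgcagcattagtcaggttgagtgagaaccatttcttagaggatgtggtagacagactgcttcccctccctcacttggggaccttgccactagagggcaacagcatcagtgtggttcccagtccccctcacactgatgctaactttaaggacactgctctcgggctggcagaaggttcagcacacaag
S100a8, chr3:90668821-90669070: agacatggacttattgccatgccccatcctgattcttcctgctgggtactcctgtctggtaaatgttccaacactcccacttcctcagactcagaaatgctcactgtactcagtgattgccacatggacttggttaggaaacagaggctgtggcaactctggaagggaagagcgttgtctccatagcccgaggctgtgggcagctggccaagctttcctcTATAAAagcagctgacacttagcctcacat
S100b, chr10:76253586-76253835: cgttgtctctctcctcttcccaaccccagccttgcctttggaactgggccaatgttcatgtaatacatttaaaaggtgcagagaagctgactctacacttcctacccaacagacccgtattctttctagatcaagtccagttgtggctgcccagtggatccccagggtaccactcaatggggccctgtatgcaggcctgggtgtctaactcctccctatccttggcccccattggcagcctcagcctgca
S100a4 and S100a8 each held 1 TATA box, whose first base lay 31 bases before the start in S100a4 and 30 bases before it in S100a8. No letters of the 5 motifs were found in the windows of S100a6 and S100b. Over 32851 such windows of the RefSeq table, 12.4% held a TATA box, 32.7% a GC box, 6.75% the AP-1 motif, 12.6% the TEAD motif and 1.47% a CArG box. S100a4 was higher and S100a8 lower in DFAT cells than in AC, and a part of the TATA box in either difference was not tested.

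In the whole series, the DFAT arrays correlated with each other at Pearson's r of 0.995 to 0.996 across probe sets, AC replicates 2 and 3 at 0.991, and AC replicate 1 with them at 0.969 and 0.971. On AC replicate 1, 17 of 18 macrophage markers and 0 of 18 endothelial markers had values under the mean of AC replicates 2 and 3. All 19 measured white adipocyte markers were above background level on some AC array and fell in DFAT cells, where 14 were at background level on all 3 arrays. Background level means the 95th percentile, per array, of the signals of 121 probe sets whose genes belong to sense organs, lens and sperm, which lay between 5.65 and 6.05 on the log2 scale. Being at it says nothing about whether a transcript was detected. As deposited, 52.9% of all called probe sets were higher in DFAT cells. That share was 63.0% with arrays centred on their median, 22.5% with 11 reference genes and 78.5% with the hybridization controls, and over all probe sets the median difference was -0.061, 0.070, -0.45 and 0.40 in the same order.

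S100a4, S100a6, S100a16 and S100a13 were higher in DFAT cells, S100a8, S100b and S100a1 were lower, S100a10 was not called and its probe sets disagreed, and S100a9 was at background level in both groups. By limma with Benjamini-Hochberg adjustment over all probe sets, 4 of the 9 members were called higher and 3 lower at an adjusted p under 0.05, and 2 were not called, and 11 of their 14 probe sets were called against 38.4% of all probe sets. Over all 18193 genes, 22.6% were called higher and 23.8% lower, 46.4% in either direction. The groups did not overlap for 7 of the 9 members, against 60.0% of all genes. At least 4-fold differences were seen for 3 members (11.4% of all genes), 2 of them higher (4.78%) and 1 lower (6.66%). The median difference was 0.18 over the members and -0.10 over all genes, on the log2 scale. Because S100a4 was chosen from this same contrast, the differences of the members are given as a description, with no p-value, and nothing is read from these counts.

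**Figure D1:**
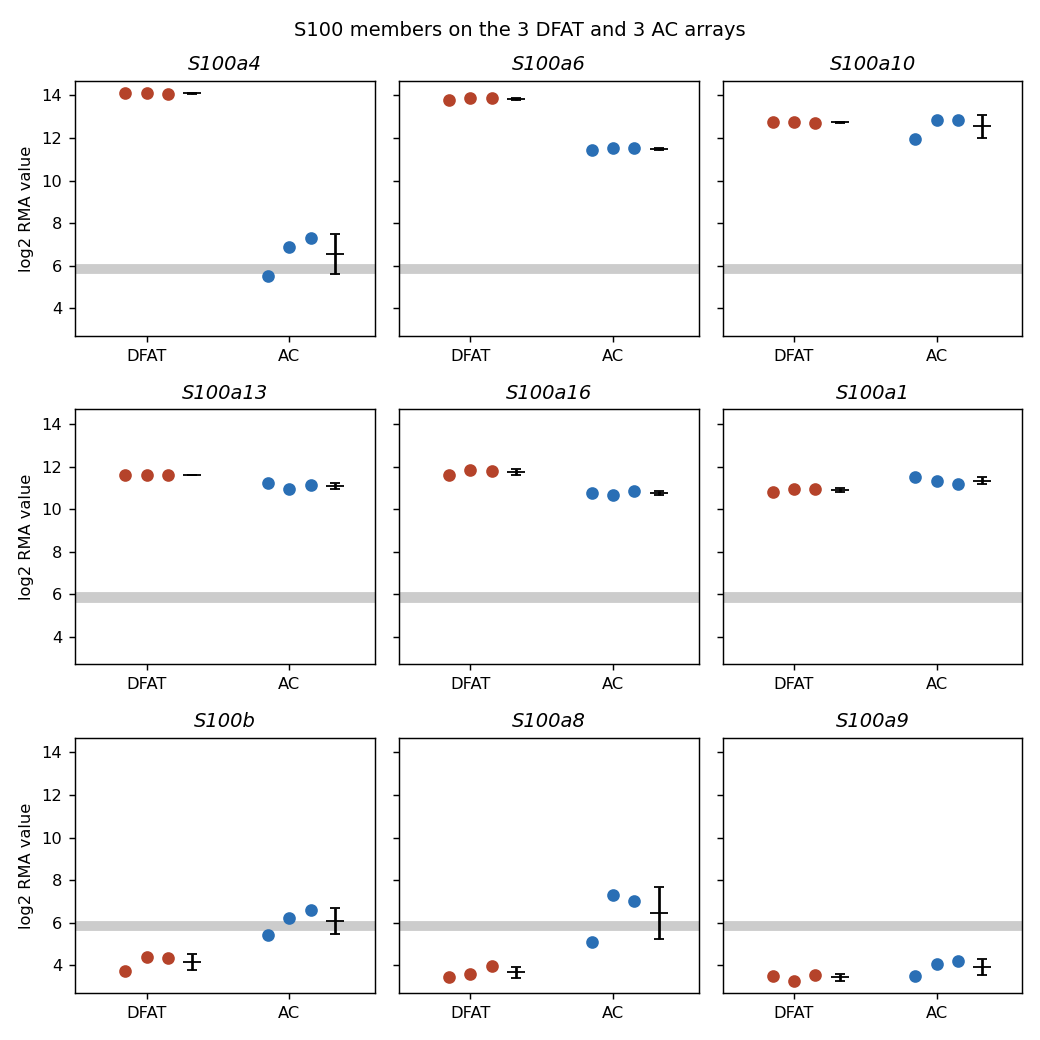
Log2 RMA values of the 9 measured S100 members, with 3 DFAT arrays left of 3 AC arrays in each panel. Each point stands for an array and black marks for the group mean with its SD, and grey shading covers background levels from 5.65 to 6.05. S100a4 lies at 14.09 to 14.13 on the DFAT arrays and at 5.50 to 7.28 on the AC arrays.

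S100a4, known as metastasin or fibroblast-specific protein, binds the heavy chain of nonmuscle myosin and loosens its filaments. Its log2 value was 14.13, 14.11 and 14.09 on the DFAT arrays, against 5.50, 6.87 and 7.28 on the AC arrays. The groups lay far apart, and the DFAT values came close to the highest value on any array, 14.55 to 14.61. The mean was 14.11 ± 0.02 in DFAT cells and 6.55 ± 0.93 in AC (SD, n = 3 each), a log2 difference of 7.56 or 189-fold. By the size of its increase it was number 2 of 18193 genes, which is what led to the choice of the family. AC replicate 1 lay under the background level of its array, 5.96, so the size of the difference is not exact. With dimmer values raised to that level, the difference was 7.41, and without AC replicate 1 it was 7.04.

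The 3 genes whose centred profile over the 6 arrays lay nearest to that of S100a4, by Euclidean distance, were Birc5 (survivin, a regulator of cell division) at a distance of 0.88, Timp1 (an inhibitor of metalloproteinases) at 1.12 and Ankrd1 (a nuclear and sarcomeric ankyrin repeat protein) at 1.25. Timp1, with 12.93, 12.89 and 12.90 on the DFAT arrays and 4.78, 6.87 and 6.82 on the AC arrays, was also lowest on AC replicate 1. Birc5 differed between DFAT cells and AC by 7.26, Ankrd1 by 7.20 and Timp1 by 6.75 on the log2 scale. Birc5 and Ankrd1 were at background level on all AC arrays and Timp1 on AC replicate 1, so these sizes are not exact. With 2 groups this far apart, such a distance rests mostly on the difference between them.

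S100a6, or calcyclin, is found in fibroblasts and dividing cells and binds annexins and the protein Cacybp. Its log2 value was 13.80, 13.86 and 13.89 on the DFAT arrays and 11.44, 11.51 and 11.55 on the AC arrays. It was thus already bright in AC, and every DFAT array lay above every AC array. The means were 13.85 ± 0.05 and 11.50 ± 0.05 (SD, n = 3 each) in DFAT cells and AC, with a log2 difference of 2.35 or 5.10-fold. AC replicate 1 did not stand apart for S100a6, and without it the difference was 2.32.

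S100a16, a broadly expressed member reported to promote fat formation in cultured mouse preadipocytes, had 11.59, 11.81 and 11.80 on the DFAT arrays and 10.74, 10.68 and 10.84 on the AC arrays. The log2 difference was 0.98, and a further probe set gave 0.90 with values of 11.22 to 11.42 in DFAT cells and 10.37 to 10.59 in AC. Neither probe set overlapped between the groups. The further one ends in _x_at and may match other transcripts.

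S100a13, which helps to release Fgf1 and Il1a from cells outside the usual secretory route, had 11.60, 11.59 and 11.60 on the DFAT arrays and 11.21, 10.93 and 11.15 on the AC arrays. The groups did not overlap, and the log2 difference was 0.50. This was the smallest of the called increases. Its call was lost when DFAT replicate 1, 2 or 3 was left out, at differences of 0.50, 0.51 and 0.50, and with arrays centred on the reference genes, at 0.12.

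S100a10, or p11, has lost the ability to bind calcium and forms a complex with annexin A2 at membranes. Its brightest probe set had 12.75, 12.74 and 12.70 on the DFAT arrays and 11.94, 12.87 and 12.83 on the AC arrays. AC replicate 1 lay below all DFAT arrays and the other AC arrays above them, and the log2 difference was 0.18, with a 95% confidence interval of -0.39 to 0.75. It was -0.12 without AC replicate 1 and -0.20 with arrays centred on the reference genes. The other probe sets disagreed with each other. Values of the first were 7.38, 7.22 and 7.40 on the DFAT arrays and 7.79, 8.26 and 8.59 on the AC arrays, a difference of -0.88 without overlap. The other, an _x_at probe set that may match further transcripts, gave 0.48 with overlapping groups. No direction can be given for S100a10 from these values.

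S100b, a glial protein also made by rodent adipocytes, had 3.72, 4.40 and 4.35 on the DFAT arrays and 5.43, 6.21 and 6.61 on the AC arrays. All DFAT values were at background level, and AC replicate 1 was too, while AC replicates 2 and 3 were above it. The means were 4.16 ± 0.38 in DFAT cells and 6.08 ± 0.60 in AC (SD, n = 3 each), a log2 difference of -1.93. It was -0.51 with dimmer values raised to the background level. A further probe set had 2.66 to 2.93 in DFAT cells and 4.51 to 6.11 in AC, with a difference of -2.56, and lay above background level on AC replicate 3 alone.
The 11 measured Schwann cell and glial markers, cells for which S100b is a classical marker, had a mean of 5.58 to 5.72 on the DFAT arrays and 6.29 to 6.45 on the AC arrays. Of these markers 6 fell and 2 rose, beside 23.8% of all genes called lower and 22.6% higher. Only background-level signal was seen for 7 in DFAT cells and for 6 in AC. Gfap, Foxd3, Cdh19, Ngfr and Gap43 were at background level in both groups, although Cdh19 and Ngfr counted among the 6 falls. Mbp, Sox10, Erbb3, Pmp22 and Egr2 were above it on all AC arrays, and of these Egr2 rose by 0.78 while the others fell. On AC replicate 1, Sox10 (7.91 against 6.82 and 6.81) and Erbb3 (7.72 against 6.55 and 6.44) were highest in AC. Mbp, Pmp22 and S100b were lowest in AC on that array, and Egr2 lay between the other AC arrays. Ncam1, at background level in AC, rose by 2.56. In bulk RNA, fewer cells of a type and less RNA per cell cannot be told apart, and the part of glial cells in the S100b values was not tested. The 3 genes nearest to S100b in profile were Lonrf3, 1700096K18Rik and Cds1 (an enzyme of phospholipid synthesis), at distances of 0.40, 0.42 and 0.42 over the 6 arrays. Their values were lower in DFAT cells by 1.75 to 2.12 on the log2 scale. All 3 were at background level in DFAT cells. 1700096K18Rik was at it on all AC arrays as well, and no change of that gene is read.

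S100a1, best known from heart muscle where it regulates calcium release, had 10.80, 10.94 and 10.94 on the DFAT arrays and 11.52, 11.32 and 11.19 on the AC arrays for the brighter of its probe sets. The groups did not overlap, with a log2 difference of -0.45. That probe set ends in _s_at and may match other transcripts. The probe set without this suffix had 9.42, 9.43 and 9.41 in DFAT cells and 10.48, 10.43 and 10.58 in AC, a difference of -1.07. The smaller difference lost its call without AC replicate 2 (-0.46) and without DFAT replicate 1, 2 or 3 (-0.40, -0.47 and -0.47), as well as with quantile normalization again (-0.48) and with arrays centred on their median (-0.32). It turned to 0.013 with arrays centred on the hybridization controls.

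S100a8 and S100a9 are the subunits of calprotectin, which neutrophils and monocytes carry in large amounts. The only probe set of S100a8 ends in _s_at and may match other transcripts. S100a8 had 3.46, 3.57 and 3.96 on the DFAT arrays and 5.08, 7.30 and 7.04 on the AC arrays. It was at background level in all DFAT arrays and on AC replicate 1, and well above it on the other AC arrays. The means were 3.66 ± 0.26 in DFAT cells and 6.47 ± 1.22 in AC (SD, n = 3 each), with a log2 difference of -2.81, of -3.51 without AC replicate 1 and of -1.02 with dimmer values raised to the background level. S100a9 had 3.51, 3.25 and 3.55 on the DFAT arrays and 3.51, 4.07 and 4.19 on the AC arrays, all at background level. Its difference of -0.49 was not called. It was called without AC replicate 1 (-0.70), with array weights (-0.65) and with arrays centred on the reference genes (-0.87). As both groups were at background level, no change of S100a9 is read from these values.
The 18 macrophage markers, of which 16 fell in DFAT cells, had a mean of 4.41 to 4.49 on the DFAT arrays, of 6.46 on AC replicate 1 and of 8.28 and 8.39 on the other AC arrays. S100a8 was lowest among the AC arrays on the same array as these markers. Of 13 measured neutrophil markers, 7 fell and 1 rose, beside 23.8% of all genes called lower and 22.6% higher. Only background-level signal was seen for 12 in DFAT cells and for 8 in AC. Their mean was 4.03 to 4.14 on the DFAT arrays and 5.61 to 6.08 on the AC arrays. Mpo, Elane, Camp, Ngp, Mmp8, Csf3r, Cxcr2 and Itgam were at background level on all AC arrays. Of these, Ngp and Cxcr2 counted among the falls although the DFAT arrays were at background level as well. Lcn2, Ltf and Prtn3 were above it, and in DFAT cells Lcn2 fell by 6.82, Ltf fell by 5.35 and Prtn3 fell by 6.18 on the log2 scale. Lcn2 and Ltf are also made by epithelium, and the 14 epithelial and mammary markers, of which 12 fell, had a mean of 4.55 to 4.69 on the DFAT arrays and of 8.59 to 9.15 on the AC arrays. Il1b had 5.10, 6.97 and 6.50 on the AC arrays, and Mmp9 had 5.33, 5.64 and 6.69. Il1b was above background level on AC replicates 2 and 3 and Mmp9 on AC replicate 3 alone, and both fell in DFAT cells. Prtn3 was lowest in AC on replicate 1, at 8.81 against 10.48 and 10.79, and so were S100a8 and Il1b. The order of Mmp9 on AC replicates 1 and 2 is not read, as both were at background level. Lcn2 was highest in AC on replicate 1, at 10.96 against 10.24 and 10.31. Ltf was nearly level over the AC arrays, at 10.13, 10.11 and 10.08. The part of macrophages, neutrophils and other leukocytes in the S100a8 values was not tested.

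**Figure D2:**
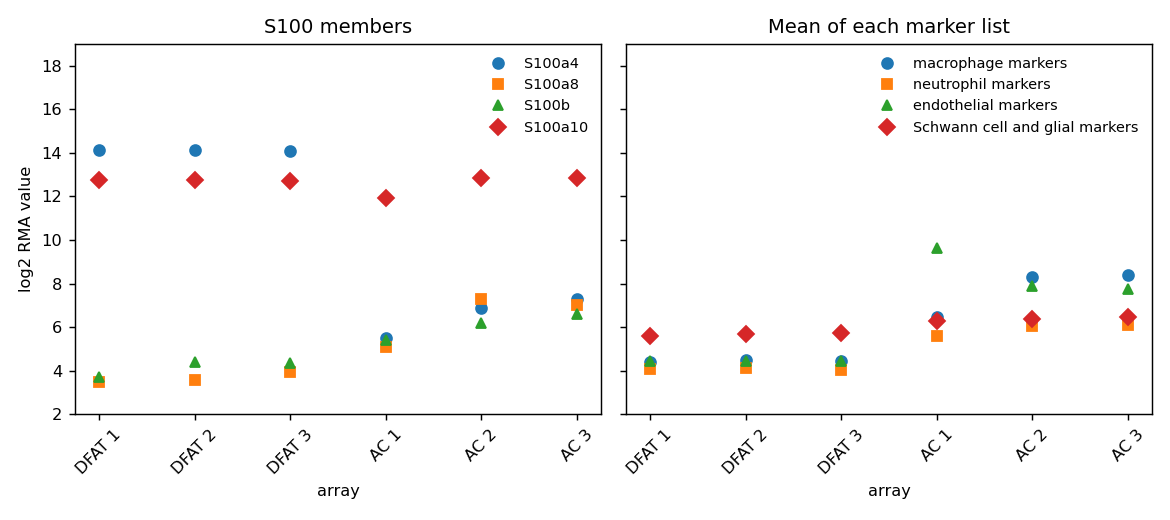
Log2 RMA values of S100a4, S100a8, S100b and S100a10 by array on the left, and the mean of each list of cell type markers by array on the right, for 3 DFAT and 3 AC arrays. On AC replicate 1 the macrophage markers had a mean of 6.46 and the endothelial markers of 9.62, and the 4 S100 genes were at their lowest among the AC arrays.

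The members differed in how far the AC arrays lay apart. The values spanned 2.23 for S100a8, 1.78 for S100a4, 1.18 for S100b and 0.92 for S100a10 on the log2 scale, and 7 of the 9 members were lower on AC replicate 1 than on average on AC replicates 2 and 3. A wider span was seen in 0.956% of all genes for S100a8, in 1.95% for S100a4 and in 6.75% for S100b. S100a6 and S100a16 spanned only 0.11 and 0.17 in AC, and 95.5% and 89.2% of all genes had a wider span. On the DFAT arrays the span was 0.67 for S100b, 0.50 for S100a8 and 0.05 for S100a4. The endothelial markers went the other way on AC replicate 1, with a mean of 9.62 against 7.88 and 7.74 on the other AC arrays. The 16 fibroblast and progenitor markers had a mean of up to 10.05 on the DFAT arrays. Their mean was 9.40, 9.79 and 9.69 on the AC arrays, where replicate 1 was again lowest. On that array 11 of the 16 were under the mean of AC replicates 2 and 3. Among the others, Pdgfrb (8.96 against 8.08 and 7.83) and Cd34 (8.87 against 8.10 and 7.74) were highest there. In DFAT cells 10 markers rose and 4 fell, beside 22.6% of all genes called higher and 23.8% lower. Those 4, Cd34, Pi16, Dcn and Lum, fell to background level.

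Along chromosome 3, the called increases included a run of measured S100 genes from S100a16, with 0.98, to S100a6. From S100a3 through S100a4 and S100a5 to S100a6, no protein-coding gene outside the family lies between them in the RefSeq order, and S100a2, which had no probe set of its own, lies within this run. S100a3, a protein of the hair cuticle, had 6.65, 7.17 and 7.17 on the DFAT arrays, against 3.71, 4.28 and 4.05 on the AC arrays, and rose out of background level (log2 difference 2.99, adjusted p = 1.5e-05 from limma). S100a5 passed the test at 0.80 (adjusted p = 0.0108 from limma) but was at background level on all arrays of both groups. After S100a6 came S100a7a, which had no probe set of its own, and then S100a8 and S100a9, with -2.81 and -0.49. S100a1 and S100a13, direct neighbours at the start of the order, had -0.45 and 0.50. S100a14, between S100a13 and S100a16, differed by -0.087 (adjusted p = 0.751 from limma) at background level in both groups.
Of the 11 measured genes listed as other S100 family genes, 3 rose, the third being S100pbp at 1.46 (adjusted p = 0.000169 from limma), a protein that binds an S100 protein and does not belong to the family itself. Over all genes 22.6% were called higher, and nothing particular to the list is read from its count. None of the 11 was called lower by limma, with 1, S100g, lower at an unadjusted p under 0.05 and 4 called lower with arrays centred on the reference genes. S100a14, S100g, S100a7l2 and the fused-type genes Flg, Hrnr, Rptn, Tchh and Tchhl1, which serve skin and hair, were at background level in both groups. The median difference of this list was -0.044.

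**Figure D3:**
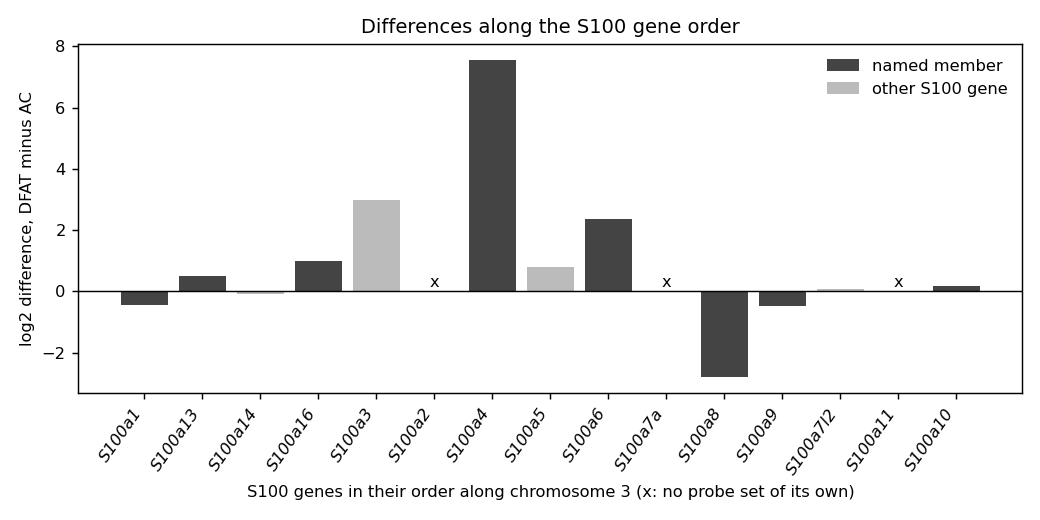
Log2 differences (DFAT minus AC) of the S100 genes in their order along chromosome 3, with named members in dark grey and other S100 genes in light grey. S100a3, S100a4, S100a5 and S100a6 stand together with differences of 2.99, 7.56, 0.80 and 2.35, and S100a5 was at background level in both groups.

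Iqgap1, Myh9, Mdm2 and Cacybp, partners of S100 proteins inside cells, rose in DFAT cells. Of 14 measured genes of this list, 7 rose, 2 fell and 5 did not pass the test, beside 22.6% of all genes called higher and 23.8% lower, and the median difference was 0.60 against -0.10 over all genes. The count of rises was 5 with arrays centred on the reference genes and with the most variable probe set of each gene. Iqgap1, a scaffold of the actin cortex, had 11.75 ± 0.05 in DFAT cells and 9.54 ± 0.08 in AC (SD, n = 3 each; adjusted p = 4.56e-06 from limma). Myh9, the heavy chain of nonmuscle myosin to which S100a4 binds, had 13.08, 13.02 and 13.13 on the DFAT arrays, against 11.46, 10.71 and 10.72 on the AC arrays. It rose by 2.11 (adjusted p = 0.00013 from limma), and unlike S100a4 it was highest in AC on replicate 1. Mdm2, the ubiquitin ligase of p53, rose by 1.61 (adjusted p = 0.000697 from limma) and Cacybp, the partner of S100a6, by 1.59 (adjusted p = 0.00216 from limma).
Among the annexins of the list, Anxa2, the partner of S100a10, had 13.41 ± 0.06 in DFAT cells and 12.90 ± 0.32 in AC (SD, n = 3 each), and Anxa1, the partner of S100a11, had 13.84 ± 0.04 and 13.02 ± 0.62 (SD, n = 3 each). Neither passed the test, with differences of 0.50 and 0.81 (adjusted p = 0.0574 and 0.0545 from limma). Anxa5 and Anxa6 fell by 0.66 and 0.76. The count of 2 falls was 1 when AC replicate 2, AC replicate 3 or any DFAT array was left out, and with arrays centred on their median, and 0 with the hybridization controls.

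Among receptors, cargo and surface partners, Plat and Bsg rose and Cd36, Fgf1 and Kcnk3 fell in DFAT cells. The other 7 of 12 measured genes did not pass the test. Counts of 2 and 3 lie near the shares of all genes called, 22.6% higher and 23.8% lower. The median difference was -0.054, and 7 had only background-level signal in DFAT cells and 4 in AC. Fgf1, a growth factor that S100a13 helps to release, had 3.71, 3.24 and 3.17 on the DFAT arrays, against 7.54, 8.08 and 7.53 on the AC arrays, a fall to background level by 4.35 (adjusted p = 2.33e-06 from limma). S100a13 itself was higher by 0.50 in the same cells. Il1a, its other known cargo, was at background level in both groups.
The fatty acid transporter Cd36, which also binds S100a8 with S100a9 and is a white adipocyte marker, fell by 10.09 (adjusted p = 2.53e-08 from limma), and the potassium channel Kcnk3, which S100a10 helps to reach the membrane, fell by 2.69 (adjusted p = 4.61e-06 from limma), both to background level. Plat, a plasminogen activator that meets S100a10 at the cell surface, rose by 1.31 (adjusted p = 0.00359 from limma), and Bsg, a receptor of S100a9, by 0.54 (adjusted p = 0.0168 from limma). The count of 2 rises was 1 without DFAT replicate 2 or 3. Of the best known receptors, Tlr4 had 6.96 ± 0.04 in DFAT cells and 6.92 ± 0.16 in AC (SD, n = 3 each) and Ager, which encodes RAGE, 5.74 ± 0.17 and 6.14 ± 0.33 (SD, n = 3 each). Their differences of 0.05 and -0.40 did not pass the test (adjusted p = 0.827 and 0.141 from limma). Ager was at background level on DFAT replicates 2 and 3 and on AC replicate 3, and Tlr4 was above it on all arrays.

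**Figure D4:**
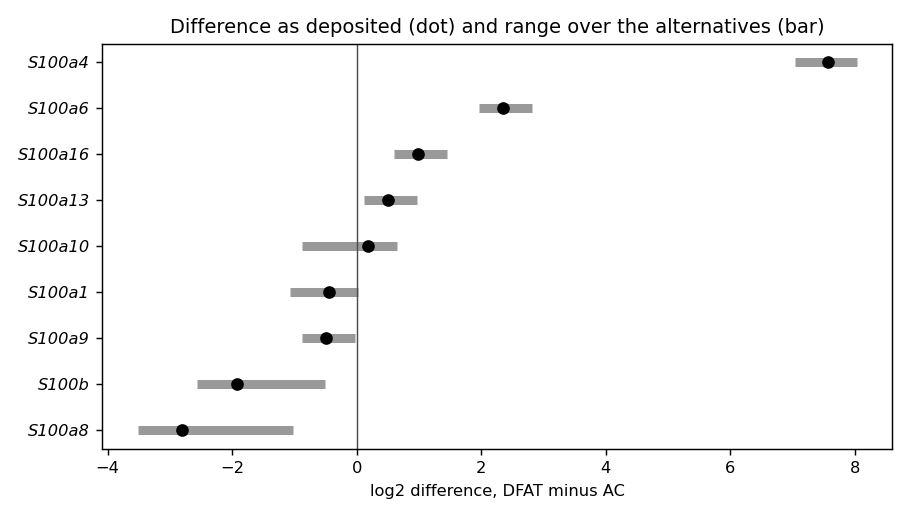
Log2 difference (DFAT minus AC) of each measured S100 member as deposited (dots) and the range over the 17 other settings tried, 16 for S100a9 (bars). The bars of S100a4, S100a6, S100a16 and S100a13 lie above 0 and those of S100b, S100a8 and S100a9 below it, while those of S100a10 and S100a1 reach across 0.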

How the data were processed

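The authors processed the scans by RMA in R, which corrects the background, brings arrays to 1 distribution and summarizes the probes of a probe set, so the deposited values are on the log2 scale and were used unchanged. The version of RMA and the arrays normalized together are not given in the sources used here. RMA values hold no detection calls, and differences of dim probe sets are compressed. Probe sets were named by the platform annotation (34945 with 1 symbol, 932 with several, 9160 with none), and the Entrez IDs of all 14 member probe sets were present in RefSeq's GRCm38.p6 annotation. Where a gene had several probe sets, the brightest on average over the 6 arrays represented it. The 64 control probe sets were left out.

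DFAT cells minus AC was fitted with limma 3.58.1 in R 4.3.3 (lmFit and eBayes, two-sided, Benjamini-Hochberg over 45037 probe sets, threshold 0.05, no filter). With 3 arrays a group, exact permutation reaches a p of 0.1 at best, so it was left aside. On simulated data with 200 of 45037 probe sets changed, 43% of changes by 1 and 88% of changes by 2 on the log2 scale were recovered, with 9 false calls. Far more probe sets (38.4%) were called in the real arrays, where recovery may differ. The members, gene lists and tests were chosen with earlier results of these data known. Named were all members, and of the lists of other S100 genes, partners and other EF-hand proteins the 3 genes that passed the test without overlap and differed most, and the 3 genes nearest in profile to S100a4 and to S100b. Other genes were named after their values were seen, for their known tie to a member. Alternatives were quantile normalization again, other centrings, a floor at background level, a filter that kept the 22518 brighter probe sets, other variance settings, array weights, the replicate number as a block, other probe set rules, a 4-fold rule, other percentiles and leaving out each array. The number of arrays limits the precision. Tables and figures were made in Python 3.11.15 with pandas 2.3.3 and matplotlib 3.10.9.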

Additional observations from a re-analysis of the deposited data

How the results depend on the processing

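S100a6 and S100a16 were called higher, and S100a8 and S100b lower, under each of the 17 other settings with a test, and S100a4 was called higher as well, a direction that the choice of the family had fixed and that is no sign of stability. Of 152 single values of members under these settings, 132 kept their direction and side of the threshold. S100a10 changed direction with arrays centred on the reference genes (-0.20), with array weights (-0.040), without AC replicate 1 (-0.12, the range over arrays left out being -0.12 to 0.34), with the mean over its probe sets (-0.072) and with its most variable probe set (-0.88), and S100a1 did with the hybridization controls (0.013). The causes were not tested. By the 4-fold rule 2 members were higher and 1 lower. Without 1 array at a time, 3 to 4 members were higher and 2 to 4 lower. Under that rule and those arrays left out, rises were 2 and 6 to 9 for the partners inside cells, 0 and 1 to 2 for receptors and surface partners, 1 and 3 for other S100 genes and 5 and 11 to 15 for other EF-hand proteins. Falls were 0 and 1 to 2 for partners inside cells and 2 and 8 to 17 for EF-hand proteins, and without 1 array they were 3 to 4 for receptors and 0 to 1 for other S100 genes. Centred on the array median, 1 partner inside cells fell, and 0 did with the hybridization controls, where 7 EF-hand proteins fell. Centred on the reference genes, receptors had 1 rise and 8 falls and other S100 genes 4 falls. With the floor at background level 9 EF-hand proteins fell, with array weights 1 other S100 gene fell, and with the most variable probe set 4 receptors or surface partners rose. Same-numbered arrays deviated from their group means with correlations of -0.016, -0.027 and 0.013. Such values cannot show whether the numbers pair the arrays, since a shared origin need not shift both groups alike. With the replicate block, 1 other S100 gene fell, S100a1 lost its call, and 4 members were higher and 2 lower. Members at background level numbered 3 in DFAT cells and 1 in AC at the 90th, 95th and 99th percentiles alike. Differences of S100a8, S100b and S100a9 are limited by signal near background, and that of S100a4 by a dim AC array.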

Other observations

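Among EF-hand proteins outside the S100 family, Myl9 and Rcn1 rose and Sparcl1 fell in DFAT cells. Of 43 measured genes, 12 rose, 14 fell and 17 did not pass the test, beside 22.6% of all genes called higher and 23.8% lower. The median difference was 0.015 on the log2 scale, and background level held 12 of them in DFAT cells and 9 in AC. Of those that fell, Calb1, Pvalb, Chp2, Hpca and Tnnc2 were at background level in both groups. Myl9, a regulatory light chain of myosin in contractile cells, had 12.90 ± 0.04 in DFAT cells and 9.32 ± 0.49 in AC (SD, n = 3 each; adjusted p = 1.08e-05 from limma). Rcn1, a reticulocalbin of the endoplasmic reticulum, had 11.20 ± 0.06 and 7.86 ± 0.31 (SD, n = 3 each; adjusted p = 3.2e-06 from limma), and its relatives Rcn2, Rcn3 and Calu rose by 1.56, 3.05 and 1.89. Sparcl1, a matrix protein, fell to background level at 4.76 ± 0.28 in DFAT cells, against 10.93 ± 0.41 in AC (SD, n = 3 each; adjusted p = 6.49e-07 from limma), and the mitochondrial protein Efhd1 fell by 3.32. The actin cross-linkers Actn1 and Pls3 rose by 2.73 and 1.76, while the related Lcp1, which is known from leukocytes, fell by 1.65. Lcp1 had 7.72 and 7.45 on AC replicates 2 and 3 but 6.61 on AC replicate 1, where the mean of the macrophage markers was also lowest in AC. The part of leukocytes in its value was not tested. Without DFAT replicate 1, 8 of the 43 fell.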
